A study of Mus musculus with 5 samples.

Results

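Metallothioneins and the enzymes of glutathione defence protect cells from free metals, oxidants and electrophiles. The genes described here are 10 such mouse genes, taken by their symbols from the deposited table: the metallothionein genes Mt1, Mt2 and Mt3, the glutathione genes Gclc, Gclm, Gstm1 and Prdx6, and the stress regulator gene Nfe2l2 with the inducible enzyme genes Hmox1 and Nqo1. All 10 were present among 16422 genes tested, and each had passed the authors' filter on low values in both conditions. The samples were nuclear RNA of retinae, each library from 1 mouse with a tamoxifen-induced Cre recombinase under the Aldh1l1 promoter (genotype Aldhl1l-Cre/Ert2+; NuTRAP+, as the labels spell it) and the NuTRAP reporter, which tags nuclear envelopes with biotin in cells with Cre activity. Positive nuclei, called Müller glia in the series' design text, were captured on streptavidin beads (animals 12, 40 and 55, n = 3), and Input nuclei were a part of the same whole-retina suspension set aside before capture (animals 40 and 55, n = 2). Both fractions share the genotype and the tamoxifen induction, the Aldh1l1 promoter that drives Cre is also active in astrocytes, and age and sex are not given in the labels used here. The libraries of 1 fraction come from separate animals.

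Metallothioneins are small cysteine-rich proteins that hold zinc and copper, and their genes are switched on by metals through the transcription factor MTF-1. Glutathione is made from glutamate, cysteine and glycine, with glutamate-cysteine ligase as the rate-limiting enzyme, and it is then used by transferases and peroxidases. NRF2, the product of Nfe2l2, is held in check by KEAP1 and induces many of these genes when oxidants or electrophiles release it. In the retina, Müller glia are known as a main store of glutathione.

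The values are log2 values relative to an Input level of each gene, so they give differences between libraries and hold no expression level. The depth behind them is unknown. The captured fraction was checked against 20 markers of Müller glia. All 20 had a positive log2 fold change of Positive over Input, with a median of 0.44 (1.36-fold). Over all genes tested, 47% had a positive one. In 19 of the markers each Positive value exceeded both Input values, against 16.7% of all genes. Markers of other cells also had positive medians: 0.65 for the pigment epithelium (9 of 11 positive), 0.55 for the endothelium (11 of 12) and 0.55 for retinal astrocytes (8 of 9). By gene, the log2 fold changes were 0.44 for Rlbp1 and 0.43 for Glul of Müller glia, 0.73 for Gfap and 0.77 for Pax2 of astrocytes, 1.29 for Rpe65 and 1.30 for Tyrp1 of the pigment epithelium, and 0.76 for Cldn5 and 0.44 for Pecam1 of the endothelium. Microglial markers had a median of 0.22 (9 of 13 positive) and mural cell markers one of 0.21 (8 of 9). Rod markers had a median of 0.02 and bipolar cell markers one of -0.15. Aldh1l1, the gene whose promoter drives Cre, had a log2 fold change of 0.30 (SE 0.14). Positive 12 stood apart in sex-linked genes, with Xist at -10.46 and Ddx3y at 8.40. In the other 4 libraries Xist lay between -0.15 and 0.10 and Ddx3y between -1.22 and 0.02. This is the pattern of a male animal 12 beside female animals 40 and 55, although the labels give no sex. Sex was thus unbalanced between the fractions in the main fit, and its part in the fold changes was not tested. The fold change of each of the 10 genes is therefore also given without Positive 12. In bulk nuclei, fewer cells of a type and less RNA per nucleus cannot be told apart.

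The 10 genes showed small differences between Positive and Input nuclei, most of them within the spread of the libraries. Their median log2 fold change was 0.12 (1.09-fold), against -0.02 over all genes tested, and leaving out Positive 12 gave 0.15. It was smaller with Input 55 left out (0.04), and just under 0 with Positive 40 left out (-7e-05) or with quantile-normalized values (-0.00063). In 7 of the 10 the fold change was positive, against 47% of all genes tested, and in 3 it was negative, against 53%. The number positive was 5 with quantile-normalized values or without Positive 40, and 8 without Positive 12. Within both animal 40 and animal 55, Positive exceeded its own Input in 5 members (Mt1, Mt2, Gclm, Hmox1 and Nqo1), against 31.7% of all genes, and was below it in 1, Nfe2l2, against 38.4%. Gclm, the modifier subunit gene of glutamate-cysteine ligase, was the 1 member in which each Positive value exceeded both Input values, against 16.7% of all genes. In 0 members did all 3 lie below both, against 21.8% of all genes. The share of 1 in 10 is near its background. Limma, a linear model with variances moderated across all genes, called 0 of the 10 at an adjusted p under 0.05, as it called 0% of all genes in either direction. At an unadjusted p under 0.05 it had 1 member, Gclm, higher, with 6.45% of all genes higher and 7.76% lower. After quantile normalization that split over all genes was 709 higher and 555 lower, against 1060 higher and 1274 lower as deposited.

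**Figure D1:**
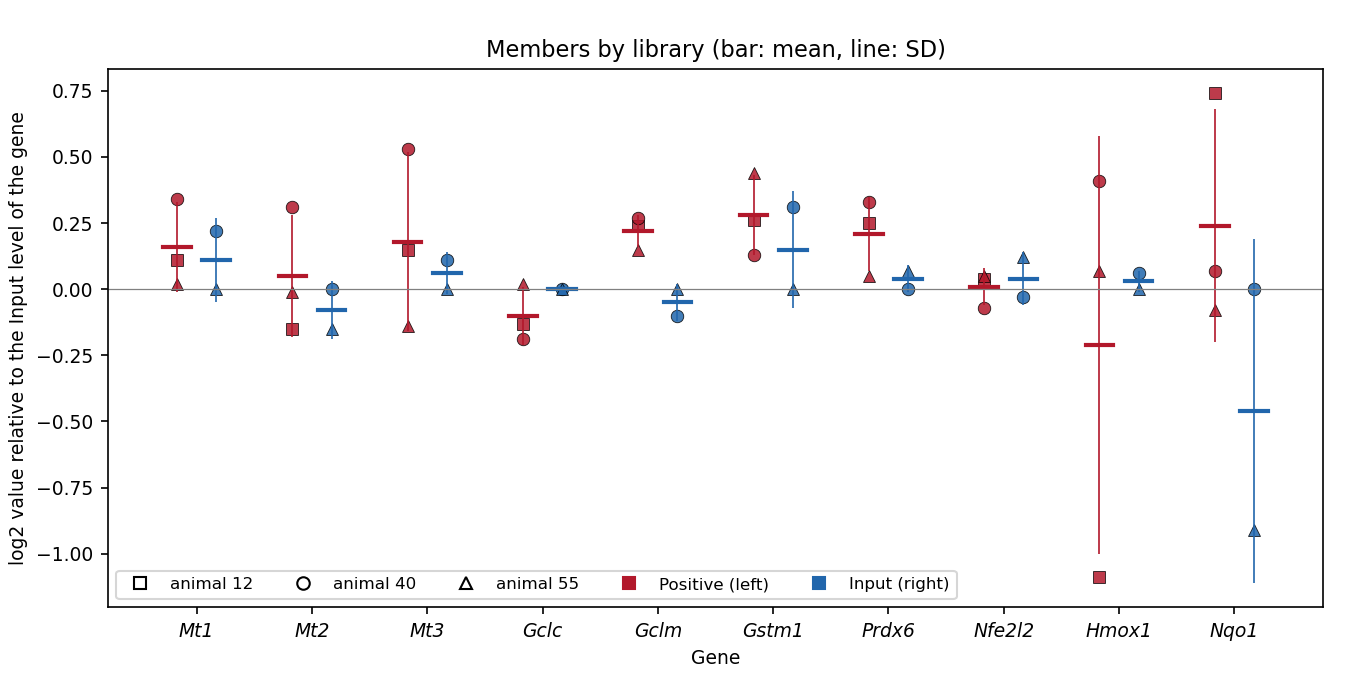
Log2 values of the 10 genes (y axis, relative to the Input level of each gene) in the 3 Positive libraries (red, left of each pair) and the 2 Input libraries (blue, right), with marker shapes for the animal, a bar for the mean and a line for 1 SD. In Gclm the Positive values of 0.15 to 0.27 lie above the Input values of -0.10 and 0.00, and in the other 9 genes the groups overlap.

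Mt1, Mt2 and Mt3 lie side by side on mm10 chromosome 8, on the plus strand, within 27721 bases. Mt3 (Entrez gene 17751) spans chr8:94152607-94154148, Mt2 (Entrez gene 17750) chr8:94172618-94173567 and Mt1 (Entrez gene 17748) chr8:94179089-94180327. Each has up to 3 exons in GENCODE M21. The bases just before their annotated starts are shown because Positive 40 was the highest library in all 3 genes and because metal response elements are the known control sites of Mt1 and Mt2. The capitals mark matches, on either strand, to the core letters TGCACNC or TGCGCNC, in the 250 bases before the start, from RefSeq on GRCm38.p6 (chr8:94178839-94179088 for Mt1, chr8:94172368-94172617 for Mt2 and chr8:94152357-94152606 for Mt3, all plus strand):
Mt1: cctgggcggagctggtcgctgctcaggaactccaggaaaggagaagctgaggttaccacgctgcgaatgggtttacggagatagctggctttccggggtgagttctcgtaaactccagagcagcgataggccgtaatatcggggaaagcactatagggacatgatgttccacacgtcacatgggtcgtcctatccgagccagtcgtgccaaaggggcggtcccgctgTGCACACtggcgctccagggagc
Mt2: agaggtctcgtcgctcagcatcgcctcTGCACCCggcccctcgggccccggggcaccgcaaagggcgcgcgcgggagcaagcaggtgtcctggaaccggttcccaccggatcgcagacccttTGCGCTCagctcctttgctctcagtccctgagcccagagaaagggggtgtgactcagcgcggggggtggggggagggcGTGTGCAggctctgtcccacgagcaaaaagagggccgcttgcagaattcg
Mt3: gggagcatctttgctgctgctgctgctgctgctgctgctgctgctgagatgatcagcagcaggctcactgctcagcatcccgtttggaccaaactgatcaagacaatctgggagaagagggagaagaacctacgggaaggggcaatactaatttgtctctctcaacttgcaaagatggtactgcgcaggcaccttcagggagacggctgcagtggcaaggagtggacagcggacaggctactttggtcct
With the 50 bases after the start included, Mt1 held 3 matches, 1 before the start (TGCACAC, bases -23 to -17) and 2 after it (TGCACTC, bases 3 to 9, and TGCGCTC, bases 21 to 27). Mt2 held 4 matches and Mt3 held 1, which lies after the start. Over 32851 promoter windows of the same length, 25.7% held at least 1 match, 1.97% held 3 or more and 0.517% held 4 or more. Letters alone do not show that a factor binds there.

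Mt1, the metal-inducible metallothionein gene, had values of 0.11, 0.34 and 0.02 in Positive 12, 40 and 55, against 0.22 and 0.00 in Input 40 and 55. Only Positive 40 lay above both Input libraries. Positive averaged 0.16 ± 0.17 (SD, n = 3), against 0.11 ± 0.16 for Input (SD, n = 2), which gives a log2 fold change of 0.04 (SE 0.14; 95% interval -0.31 to 0.40; limma adjusted p = 0.887). It was 0.07 without Positive 12, and it turned to -0.05 without Positive 40, to -0.07 without Input 55 and, with quantile-normalized values, to -0.13.

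Mt2, its neighbour with the same kind of regulation, had -0.15, 0.31 and -0.01 in Positive 12, 40 and 55, against 0.00 and -0.15 in Input 40 and 55. Positive 40 was again the highest library, and Positive 12 and Input 55 were the lowest, at nearly the same value. The log2 fold change was 0.13 (SE 0.16; 95% interval -0.29 to 0.54; limma adjusted p = 0.714), 0.23 without Positive 12 and -0.0023 without Positive 40.

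Mt3, the metallothionein gene known from brain, had 0.15, 0.53 and -0.14 in Positive 12, 40 and 55, against 0.11 and 0.00 in Input 40 and 55. The Positive libraries lay on both sides of the Input libraries, with Positive 55 the lowest of the 5. Its log2 fold change was 0.12 (SE 0.21; 95% interval -0.43 to 0.68; limma adjusted p = 0.797), 0.14 without Positive 12, -0.06 without Positive 40 and -0.02 with quantile-normalized values. In all 3 genes Positive 40 was the highest library, as it was in 24.5% of all genes. The Müller marker median was also highest there, at 0.65 in Positive 40, beside 0.42 in Positive 12 and 0.30 in Positive 55. So was the pigment epithelium median, at 0.80 in Positive 40, beside 0.54 in Positive 12 and 0.47 in Positive 55, while the endothelial median was lowest there, at 0.17, beside 0.57 in Positive 12 and 0.59 in Positive 55. The part of these markers in the metallothionein values was not tested.

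Within animal 40, Positive minus Input was 0.12 for Mt1, 0.31 for Mt2 and 0.42 for Mt3. Within animal 55 it was 0.02 for Mt1, 0.15 for Mt2 and -0.14 for Mt3. The difference thus had a positive sign in both animals for Mt1 and Mt2 and in 1 of them for Mt3. The metallothionein genes share sequence, and how reads that fit more than 1 of them were counted is not given in the sources used here, so their separate values are uncertain. The next measured genes on each side, Bbs2, a gene of the ciliary BBSome, and Nup93, a nuclear pore gene, had log2 fold changes of -0.09 (SE 0.07) and -0.03 (SE 0.08).

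**Figure D2:**
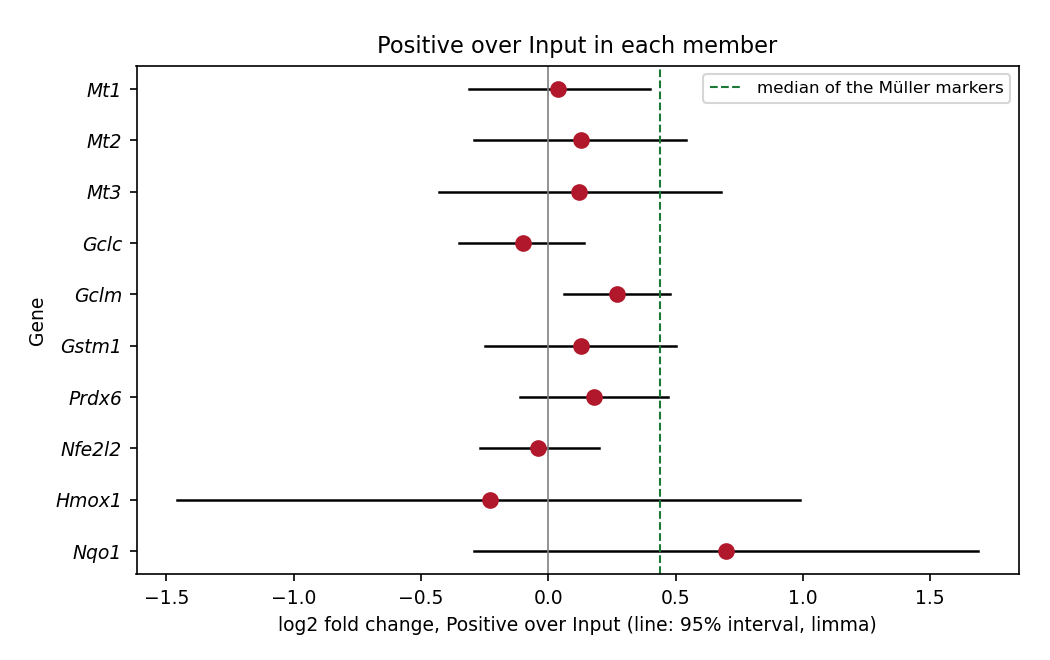
Log2 fold change of Positive over Input (x axis) for each gene, with its 95% interval from limma as a line, 0 as a solid line and the Müller marker median of 0.44 as a dashed line. The interval holds 0 in 9 of the 10 genes, all but Gclm, and it ends below the dashed line in Mt1, Gclc and Nfe2l2. The dashed line is drawn without its own error. With the Müller marker median subtracted, these 3 genes and 50.4% of all genes were lower at an unadjusted p under 0.05 in limma.

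Glutamate-cysteine ligase is built from a catalytic subunit, encoded by Gclc, and a modifier subunit, encoded by Gclm, which raises its activity. Gclm (Entrez gene 14630, chr3:122245557-122267215, plus strand, up to 8 exons) had 0.24, 0.27 and 0.15 in Positive 12, 40 and 55, against -0.10 and 0.00 in Input 40 and 55. The Positive libraries lay above both Input libraries without overlap, and their SD was small, at 0.06. Positive averaged 0.22 ± 0.06 (SD, n = 3), against -0.05 ± 0.07 for Input (SD, n = 2). The log2 fold change was 0.27 (SE 0.08; 95% interval 0.06 to 0.48), or 1.21-fold. Its unadjusted p in limma was 0.0235 and its adjusted p over all genes was 0.331, so it did not pass the test. Under a fixed replicate block of the animal its unadjusted p was not under 0.05 either, nor was it with Positive 12, Positive 40, Input 40 or Input 55 left out. Gclm was higher in Positive by 0.37 within animal 40 and by 0.15 within animal 55, and the fold change was 0.26 without Positive 12. Over 12 other settings, some of which cannot move a fold change, it stayed between 0.22 and 0.32. RefSeq lists another gene, Gm6061, that overlaps its span, and how reads from the overlap were counted is not given in the sources used here.

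The promoter of Gclm is shown because Gclm is the member whose groups did not overlap and because it is a known target of NRF2, which binds antioxidant response elements. The capitals mark the match to TGACNNNGC, here on the minus strand as TGACGGTGC (bases -134 to -126), in the 250 bases before the start from RefSeq (GRCm38.p6, chr3:122245307-122245556, plus strand):
Gclm: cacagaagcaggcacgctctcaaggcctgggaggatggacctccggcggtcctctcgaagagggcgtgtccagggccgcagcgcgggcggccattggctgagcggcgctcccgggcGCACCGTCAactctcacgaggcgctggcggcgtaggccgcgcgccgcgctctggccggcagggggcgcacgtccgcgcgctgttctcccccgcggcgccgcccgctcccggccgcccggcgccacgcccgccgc
This match overlaps a match to the metal response core (TGCGCCC, bases -138 to -132). Among the 7 members with a promoter in the table, Gclm, Mt2 (TGACTCAGC, bases -79 to -71) and Nfe2l2 (TGACTCCGC, bases -240 to -232) held a match to TGACNNNGC, against 12.4% of all promoter windows. The window of Nqo1 held neither set of letters, which says nothing of its control from elsewhere.

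Gclc (Entrez gene 14629, chr9:77754535-77794489, plus strand, up to 16 exons) had -0.13, -0.19 and 0.02 in Positive 12, 40 and 55, against 0.00 and -0.00065 in Input 40 and 55. Positive 12 and 40 lay below both Input libraries and Positive 55 above both. The log2 fold change was -0.10 (SE 0.09; 95% interval -0.35 to 0.14; limma adjusted p = 0.61), -0.09 without Positive 12 and 0.02 after quantile normalization. Gclm minus Gclc averaged 0.32 ± 0.17 for Positive (SD, n = 3), against -0.05 ± 0.07 for Input (SD, n = 2). This difference of 0.37, a contrast chosen after the values were seen, gave a two-sided exact permutation p of 0.2, where 10 arrangements allow none under 0.1.

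Gstm1 encodes a mu class glutathione S-transferase, which joins glutathione to electrophiles (Entrez gene 14862, chr3:108012250-108017973, minus strand). Its values were 0.26, 0.13 and 0.44 in Positive 12, 40 and 55, against 0.31 and 0.00 in Input 40 and 55. The groups overlapped, since Input 40 lay above Positive 12 and 40. The log2 fold change was 0.13 (SE 0.14; 95% interval -0.25 to 0.50; limma adjusted p = 0.683), with opposite signs within animal 40 (-0.17) and animal 55 (0.44). It was 0.13 without Positive 12, -0.03 without Input 55 and -0.09 with quantile-normalized values. Gstm1 belongs to a cluster of similar genes, so reads may have been split among them.

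Prdx6, a peroxiredoxin gene whose product reduces peroxides with the help of glutathione (Entrez gene 11758, chr1:161240112-161251166, minus strand), had 0.25, 0.33 and 0.05 in Positive 12, 40 and 55, against 0.00 and 0.07 in Input 40 and 55. Positive 12 and 40 lay above both Input libraries and Positive 55 lay between them. The log2 fold change was 0.18 (SE 0.11; 95% interval -0.11 to 0.47; limma adjusted p = 0.473), and it was 0.16 without Positive 12. It kept a positive sign in all 12 other settings, from 0.08 to 0.26, though some of these cannot move a fold change.

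Nfe2l2 (Entrez gene 18024, chr2:75675519-75704641, minus strand) encodes NRF2, the regulator named above. It had 0.04, -0.07 and 0.05 in Positive 12, 40 and 55, against -0.03 and 0.12 in Input 40 and 55. The Positive values lay close together, with an SD of 0.07, and overlapped those of Input. The log2 fold change was -0.04 (SE 0.09; limma adjusted p = 0.852), and the 95% interval of -0.27 to 0.20 is a range of 0.83-fold to 1.15-fold. It was -0.05 without Positive 12, 0.0021 without Positive 40 and 0.04 without Input 55.

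Hmox1 encodes the inducible haem oxygenase, which breaks haem down to biliverdin, iron and carbon monoxide (Entrez gene 15368, chr8:75093618-75100593, plus strand). It had -1.09, 0.41 and 0.07 in Positive 12, 40 and 55, against 0.06 and 0.00 in Input 40 and 55. Positive 12 alone lay far below the other 4 libraries. The SD of Positive was 0.79, at the 96.5th percentile of all genes, and the log2 fold change of -0.23 (SE 0.47; 95% interval -1.46 to 0.99; limma adjusted p = 0.82) rested on that library. Without Positive 12 it was 0.21, with 0.35 within animal 40 and 0.07 within animal 55.

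Nqo1, the gene of an NADPH-using quinone reductase (Entrez gene 18104, chr8:107388225-107403205, minus strand), had 0.74, 0.07 and -0.08 in Positive 12, 40 and 55, against 0.00 and -0.91 in Input 40 and 55. Positive 12 was the highest library and Input 55 the lowest, and Positive 55 lay between the Input libraries. Its log2 fold change of 0.70 (SE 0.38; 95% interval -0.29 to 1.69; limma adjusted p = 0.425) was the highest of the 10 and had the widest interval after Hmox1. Leaving out Positive 12 gave 0.45, leaving out Input 40 gave 1.16 and leaving out Input 55 gave 0.24, so single libraries set its size.

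Set against the Müller markers, most of the genes lay lower in Positive nuclei, as did most of all genes tested. After subtraction of the Müller marker median of each library, a comparison added after the data were seen, each Positive value was below both Input values in 8 of the 10 genes, the exceptions being Gstm1 and Nqo1. The same held for 75.5% of all genes, so this share is near the background, and 0 of the 10 had the reverse, against 1.13% of all genes. On that scale the log2 fold change of Mt1 was -0.41 (SE 0.17; limma adjusted p = 0.0891), Gclc -0.56 (SE 0.21; adjusted p = 0.0792), Nfe2l2 -0.49 (SE 0.20; adjusted p = 0.0892) and Gclm -0.18 (SE 0.17; adjusted p = 0.359). Limma called 0 of the 10 there, against 0.0183% of all genes higher and 0.0792% lower, with 3 at an unadjusted p under 0.05 (Mt1, Gclc and Nfe2l2), against 50.4% of all genes lower.

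The other genes of these pathways were described over 6 lists with 143 genes, of which 134 were measured. In 41 of the 134 (30.6%) each Positive value exceeded both Input values, against 16.7% of all genes, and in 19 (14.2%) each was below both, against 21.8%. Limma called 0 of them in either direction after adjustment over all genes, and at an unadjusted p under 0.05 it had 19 higher (14.2%, against 6.45% of all genes) and 2 lower (1.49%, against 7.76%). Their median log2 fold change was 0.09, against -0.02 over all genes. Without Positive 12 the share above both Input libraries was 41%, against 22% of all genes. Without Input 40 it was 63 of the 134 genes (47%), against 27.6%, and after quantile normalization it was 21 of the 134 (15.7%), against 11.6%. Pigment epithelium and endothelial markers had medians of 0.65 and 0.55 in the same comparison, and their part in these counts was not tested.

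**Figure D3:**
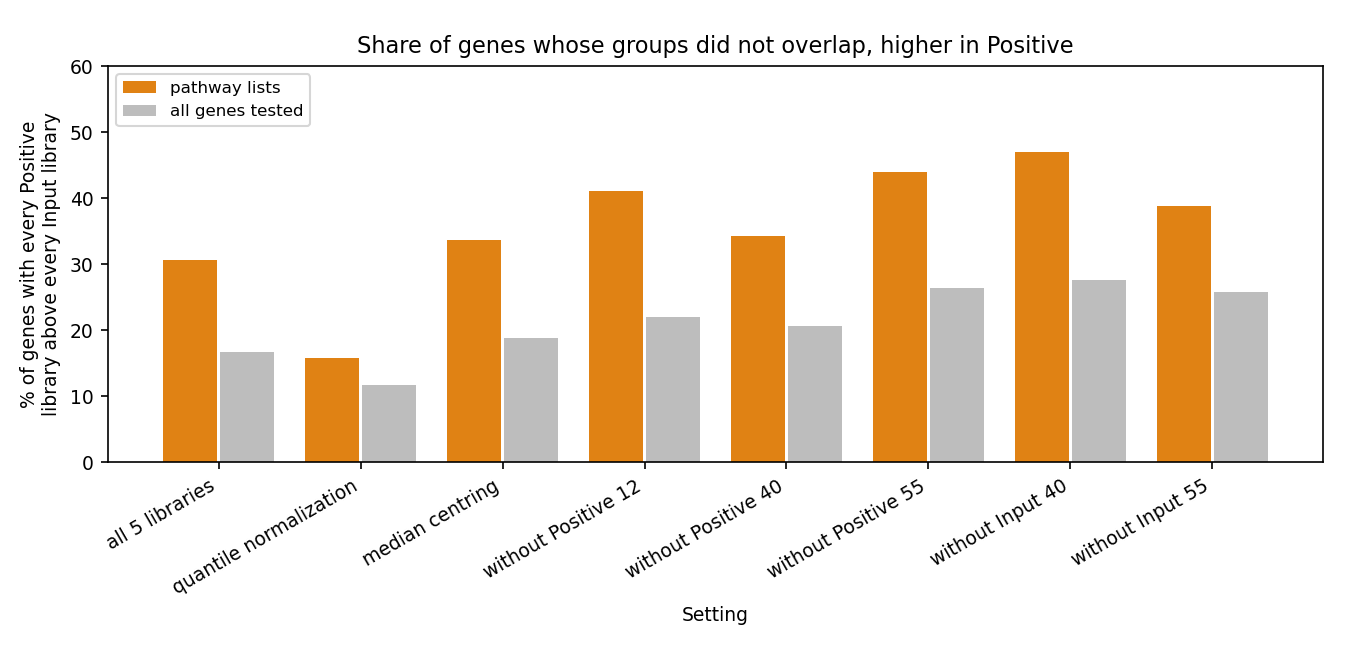
Percent of genes (y axis) in which every Positive library lay above every Input library, for the 134 measured pathway genes (orange, left) and all genes tested (grey, right), with all 5 libraries, after 2 other normalizations and without each library in turn. The pathway share is above that of all genes in each setting drawn, by the least after quantile normalization (15.7% against 11.6%).

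Enzymes that remove peroxide and superoxide had the highest median of the 6 lists, 0.22, with 20 of 24 positive. In 10 (41.7%) the Positive values were above both Input values, against 16.7% of all genes, and in 2 (8.33%) below both, against 21.8%. The highest log2 fold changes were 1.60 (SE 0.92) for Gpx3, the secreted glutathione peroxidase gene, and 1.36 (SE 0.65) for Sod3, the extracellular superoxide dismutase gene. In both the groups overlapped, with Gpx3 at 3.54, 1.43 and 3.09 in Positive 12, 40 and 55, against 0.00 and 2.18 in Input 40 and 55. Prdx4, the peroxiredoxin gene of the endoplasmic reticulum, was named after its values were seen. Its log2 fold change was 0.87 (SE 0.11), with each Positive value above both Input values and the lowest adjusted p of the 134 genes, 0.267 in limma. At the other end were Txnrd2, the mitochondrial thioredoxin reductase gene, at -0.05 (SE 0.07) and the sestrin gene Sesn3 at -0.20 (SE 0.09).

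Genes of glutathione synthesis, recycling and cysteine supply had a median of 0.11, with 14 of 21 positive. In 8 (38.1%) the Positive values were above both Input values, against 16.7% of all genes, and in 1 (4.76%), the glutathione synthetase gene Gss, below both, against 21.8%. Ggt1, a gamma-glutamyl transferase gene whose product cleaves glutathione outside the cell, had 0.85 (SE 0.23; limma adjusted p = 0.331). Slc7a11, the cystine importer gene and a known NRF2 target, had 0.57, 0.35 and 0.39 in Positive 12, 40 and 55, against 0.00 and -0.25 in Input 40 and 55. Its log2 fold change was 0.56 (SE 0.12; limma adjusted p = 0.331) and the groups did not overlap. The lowest were Ggt5, a relative of Ggt1, at -0.47 (SE 0.27) and Chac1, whose product degrades glutathione inside the cell, at -0.51 (SE 0.26).

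Other glutathione S-transferase genes had a median of 0.13, with 14 of 20 positive, 7 (35%) above both Input libraries, against 16.7% of all genes, and 1 (5%) below both, against 21.8%. Gstm2 had the highest log2 fold change, 1.81 (SE 0.37; limma adjusted p = 0.331), but it had cleared the low-value filter in only 1 condition, so this size depends on low values. Gstt3, a theta class gene, had 0.50 (SE 0.10). Gsto1, an omega class gene, had -0.36 (SE 0.39), and Gstm6, which had passed the filter in 1 condition, had -1.15 (SE 1.33) and was set by Positive 40 at -3.76.

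Zinc and copper handling genes, the setting in which metallothioneins work, had a median of -0.04, with 14 of 31 positive. In 6 (19.4%) every Positive value exceeded both Input values, against 16.7% of all genes, and in 9 (29%) every one was below both, against 21.8%, so the share above is near its background. Slc39a12, a zinc importer gene, had 0.58, 0.44 and 0.50 in Positive 12, 40 and 55, against -0.32 and 0.00 in Input 40 and 55, a log2 fold change of 0.66 (SE 0.12; limma adjusted p = 0.329). Slc39a8, another importer gene, had 0.52 (SE 0.22). Slc30a3, the gene of the zinc transporter of synaptic vesicles, had -0.39 (SE 0.22). Slc30a2, a zinc exporter gene, had -0.98 (SE 0.25), with every Positive library below both Input libraries. Mtf1, the gene of the metal sensor MTF-1, was named for its role and not by rank, and had 0.01 (SE 0.07).

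Regulators and partners of NRF2 had a median of 0.07, with 4 of 15 (26.7%) above both Input libraries, against 16.7% of all genes, and 4 (26.7%) below both, against 21.8%. Maff, a small MAF partner gene, had 0.32 (SE 0.17), and Sqstm1, whose product p62 draws KEAP1 away from NRF2, had 0.27 (SE 0.11). Bach2, of a family of repressors of antioxidant genes, had -0.15 (SE 0.09), as had the small MAF gene Mafg (SE 0.07). Keap1, the gene of the NRF2 inhibitor, likewise named for its role, had -0.08 (SE 0.10). Haem, iron and NADPH genes that are targets of NRF2 or work beside them had a median of 0.11, with 6 of 23 (26.1%) above both Input libraries, against 16.7% of all genes, and 2 (8.7%) below both, against 21.8%. They were led by the ferritin light chain gene Ftl1 and the epoxide hydrolase gene Ephx1, both at 0.36 (SE 0.14 and 0.11). The lowest were G6pdx, the first enzyme gene of the pentose phosphate pathway, at -0.14 (SE 0.07) and the glutathione conjugate exporter gene Abcc1 at -0.20 (SE 0.07).

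**Figure D4:**
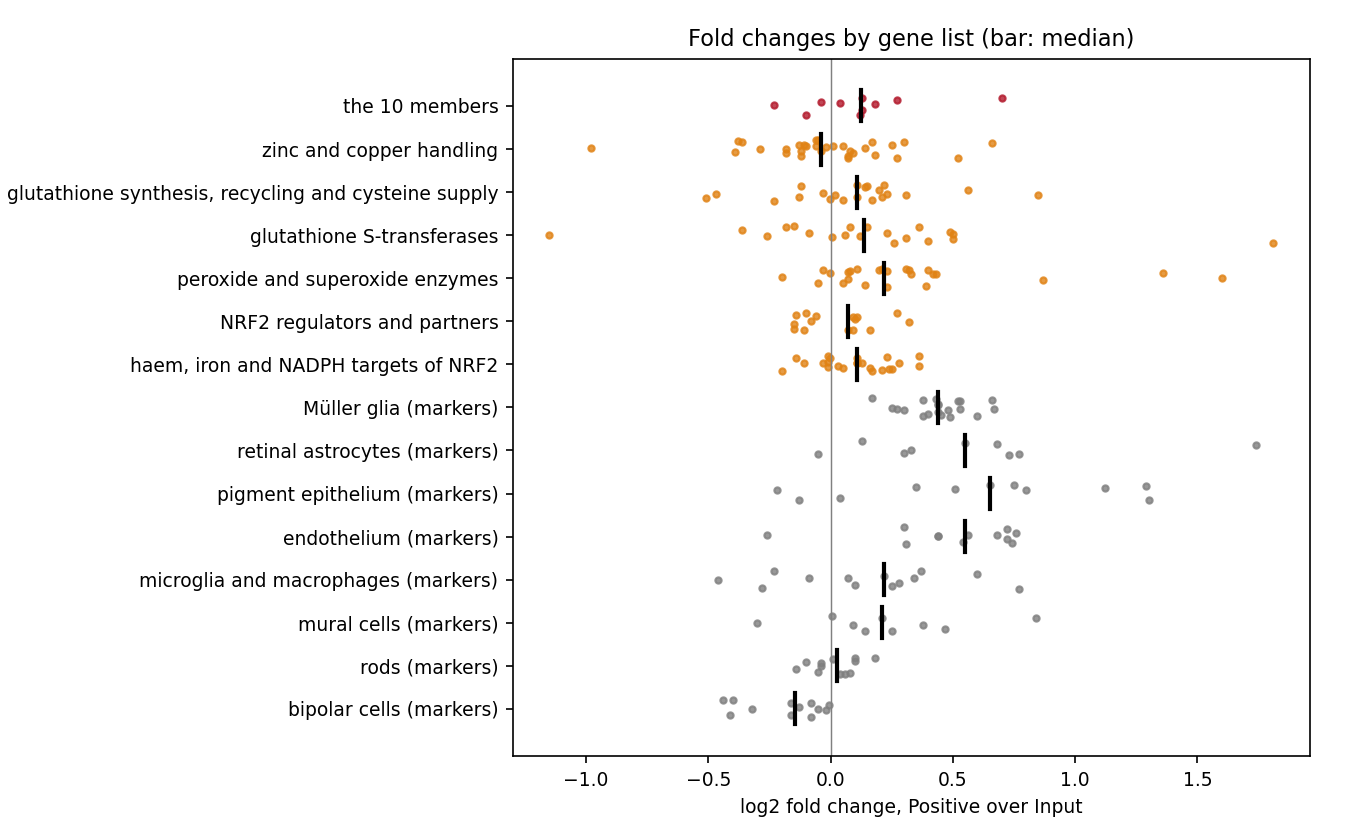
Log2 fold change of Positive over Input (x axis) of each measured gene, by list (rows), for the 10 genes (red), the 6 pathway lists (orange) and the markers of 8 cell types (grey), with a black bar for the median. The medians of the 10 genes (0.12) and of the pathway lists (-0.04 to 0.22) lie below the Müller marker median of 0.44.

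The genes whose profile over the 5 libraries lay nearest to Mt1, Prdx6 and Gclc were found by Euclidean distance after centring on the Input mean. For Mt1 they were BC048943, 2900011O08Rik and St13, at distances of 0.061, 0.073 and 0.0739 log2 units, against a median of 0.5 over all genes. For Prdx6 they were Arl4a, Uvrag and Abhd6, at 0.0379, 0.0554 and 0.0564. For Gclc they were Pwp1, Smarcal1 and Tbcd, at 0.0211, 0.0465 and 0.048. Among the 10 genes themselves, Mt1 and Mt2 lay 0.243 apart, Mt1 and Mt3 0.292, and Gclm and Prdx6 0.198, while the nearest pair was Gclc and Nfe2l2 at 0.181. With 5 libraries such likeness is a description only.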

How the data were processed

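Nuclear RNA of mouse retina was measured in 5 libraries, each from a pair of retinae of 1 animal, grouped by the fraction in their titles. The deposited table holds log2 values in 16423 rows and 0 columns of other samples. Per the file headers, the gene models came from RefSeq and a row needed a raw value of at least 5 in all libraries of 1 or more conditions. Per the submitters' processing notes, the build was mm10 and DESeq was used; the sources used here do not give the aligner, the counter or the use of strand or introns. In 97.6% of genes 1 Input library is exactly 0, so values are relative to an Input level of each gene, and neither a count model nor a counting interval could be used. Of the genes, 16373 matched RefSeq genes of GRCm38 by Entrez number, and 16372 of these overlapped them.

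The deposited log2 values were tested as they stand, Positive against Input, with limma 3.58.1 (R 4.3.3), with 1 row per symbol, no mean-variance trend, 3 residual degrees of freedom, two-sided tests and Benjamini-Hochberg adjustment over 16422 genes (adjusted p under 0.05). SE and 95% intervals are the moderated ones. The fit was tested on simulated data. An exact permutation of 3 against 2 libraries cannot give a p under 0.1. The members and lists were chosen with earlier results of these data known, and lists are described without a test. Named genes were every member, Aldh1l1, the 2 highest and 2 lowest of each pathway list, the first genes of marker lists where needed, and the 3 nearest genes of Mt1, Prdx6 and Gclc. Promoter windows run from 250 bases before to 50 after the start. Libraries of animals 40 and 55 are paired by animal, per the labels. Their deviations from the group means correlated across genes (r = 0.174 within animal 40, r = 0.195 within animal 55). The deviations of Input 40 and Input 55 mirror each other by construction, so these r values are not separate checks of the pairing. Positive 12 has no partner here. The main fit held no term for the animal, so its SE, intervals and p values take no account of this pairing. Alternatives were quantile normalization, median centring, a trend or robust prior, and the animal as a replicate block, fixed or random. Further ones were genes that passed the filter in both conditions and leaving out each library. Quantile normalization was run on values already relative to Input, where 97.6% of genes have 1 Input library at exactly 0. It gives all libraries the same distribution of values, which limits it as a check.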

Additional observations from a re-analysis of the deposited data

How the results depend on the processing

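The 12 alternatives gave 120 fold changes of single members, of which 107 kept their direction and 13 changed sign; 0 members were called under any, the lowest adjusted p in limma being 0.126. The sign changes were at quantile normalization for Mt1 (-0.13), Mt3 (-0.02), Gclc (0.02) and Gstm1 (-0.09); without Positive 40 for Mt1 (-0.05), Mt2 (-0.0023), Mt3 (-0.06) and Nfe2l2 (0.0021); without Input 55 for Mt1 (-0.07), Gstm1 (-0.03) and Nfe2l2 (0.04); and for Hmox1 without Positive 12 or under a fixed replicate block of the animal (0.21 in both, since the block takes Positive 12 out of the contrast). With 1 library left out, the other ends of the ranges were 0.16 for Mt1, 0.23 for Mt2, 0.28 for Mt3 and Gstm1, -0.11 for Nfe2l2 and -0.54 for Hmox1. Gclm, Prdx6 and Nqo1 kept their sign under all 12. Part of the 107 was fixed in advance, since the trend and the robust prior change only the variance. Every member had passed the filter in both conditions, so that setting cannot move a member's fold change either. The fixed replicate block gave the members the same fold changes as leaving out Positive 12. Over all genes, limma called 0 higher and 0 lower under every setting but the animal as a random replicate block (consensus correlation 0.514), which called 4 higher and 7 lower, none of them members. Members with every Positive library above both Input libraries numbered 1, against 2 with the fixed replicate block and 1 to 5 with 1 library left out: Gclm in every case, with Hmox1 without Positive 12, Mt3, Prdx6 and Nqo1 without Positive 55, Mt1, Mt2, Gstm1 and Nqo1 without Input 40, and Prdx6 without Input 55. The share of all genes moved too, from 16.7% with all libraries to 22% with that block or on leaving out Positive 12, 20.6% on leaving out Positive 40, 26.3% for Positive 55, 27.6% for Input 40 and 25.7% for Input 55. Members at an unadjusted p under 0.05 in limma numbered 0 with the fixed replicate block and without Positive 12 or Positive 40. Without Positive 55 there were 2, Gclm and Prdx6, while the number over all genes rose from 2334 to 3188. Pathway genes with every Positive library above both Input libraries numbered 41, against 21 after quantile normalization and 46 to 63 with 1 library left out. Where leaving out an Input library leaves 1, that library is taken to vary like the others. The causes were not tested. Depth is unknown, and few reads are marked only by the authors' filter, which 751 genes passed in 1 condition.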
